A study of Mus musculus with 2 samples.

Results

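Basal epithelial cells of the mouse prostate that carried the membrane-bound green fluorescent reporter mGFP were compared with basal cells of the same barcode set that lacked it. The mice were R26 mTmG/hAR:Osr1 Cre/+ animals, so every cell on either side carried the same alleles: Cre recombinase under control of the Osr1 gene, an mTmG allele at R26 that switches to mGFP after recombination, and a hAR allele at R26 that switches on a human androgen receptor transgene (hARtg). Cells were chosen by their measured values, on the scale ln(1 + UMIs per 10000 UMIs of the cell), where a UMI is a tag that marks 1 captured RNA molecule. A basal cell had Krt5 at 1.5 or more, Krt14 at 1 or more and Ptprc at 0. It was called reporter-positive with mGFP at 2 or more and reporter-negative with mGFP under 1. The rule gave 261 positive and 1029 negative cells, 1290 in all, of 6332 cells in barcode set 1 and 15742 cells in the deposited table. A further 68 basal cells lay between the limits and were left out.

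The study profiled dissociated prostate tissue by droplet-based 3' RNA sequencing, with 1 library from prostatic intraepithelial neoplasia (PIN) and 1 from prostatic adenocarcinoma (PCa) of older mice. The labels do not say which barcode ending belongs to which tissue, so the cells below are not assigned to either. Whether animals were pooled was not given in the sources used here, and basal cells of mice without the transgene or without Cre were not analysed here. Positive and negative cells shared 1 library, so no difference has a replicate check and every interval covers counting error only.

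Basal cells line the outer side of the prostate epithelium, next to the basement membrane, and carry keratins 5 and 14. Luminal cells face the gland lumen, carry keratins 8 and 18 and make the secretory proteins of the prostate under androgen control. The androgen receptor is a steroid-activated transcription factor, and IGF1 receptor and Wnt signalling are pathways by which epithelial cells receive growth signals. The mTmG and hAR alleles are separate, and each needs its own recombination.

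Positive cells held more UMIs, with a median of 16763 UMIs and 3546 genes per cell against 11174 UMIs and 2864 genes in negative cells. The sums were 5193403 and 14952199 UMIs. Median mitochondrial shares were 3.54% and 3.32%. A doublet score above 0.25 was seen in 10 positive cells (3.83%) and 17 negative cells (1.65%). A total of 67 barcodes occurred in both barcode sets, which touched 1 positive and 15 negative cells. Basal markers outside the rule were present on both sides: Krt15 was found in 99.2% of positive and 98.8% of negative cells, and Col17a1 in 91.6% and 90.3%, while Trp63 was seen in only 7.66% and 6.12%. Luminal markers were not absent. Their summed level, over 9 genes, was 5697 CPM (UMIs per 1000000 UMIs) in positive and 8497 CPM in negative cells, against 34705 CPM in 1957 Krt8+ Krt18+ cells without Krt5, Krt14 and Ptprc. The 5 leukocyte markers summed to 6.74 and 2.54 CPM. Fibroblast markers summed to 2761 and 2253 CPM, nearly all of it Dcn, while Col1a1 was at 0.00 and 1.14 CPM. The 4 smooth muscle markers summed to 11.2 and 4.08 CPM and the 4 endothelial markers to 3.85 and 3.41 CPM. The part of these levels in the differences below was not tested.

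The upper reporter limit fell in a thinly filled range and the lower one in a fuller range. The lowest positive cell had an mGFP value of 2.05 and the highest cell below that limit 2.00, with 6 cells within 0.25 on each side. At the lower limit the neighbouring values were 1.002 and 0.992, with 39 cells within 0.25 above and 63 below. Positive cells held 5 to 433 mGFP UMIs (median 105) and negative cells 0 to 4 (median 0). Around the Krt5 limit lay 102 and 107 cells and around the Krt14 limit 18 and 23.

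hARtg, which the rule did not use, stood far higher on the positive side. Its summed level was 598 CPM (95% counting interval 578 to 620) in positive cells and 81.1 CPM (76.6 to 85.8) in negative cells, a log2 ratio of 2.88 (2.79 to 2.98). Per cell, positive cells held a median of 10 hARtg UMIs (lowest 0, highest 59) and negative cells a median of 0 (lowest 0, highest 31). The sides overlapped. At least 1 hARtg UMI was found in 97.7% of positive cells and 25.9% of negative cells, and in 79.5% and 13.2% after each cell was thinned to 3000 UMIs. In 183 Ptprc+ cells without epithelial keratins, which should lack the transgene, the share was 3.28% (1.57% after thinning) at a median of 3547 UMIs, and the level was 12.1 CPM. The negative side as a whole therefore lay above that background. Of its 1212 hARtg UMIs, 1007 came from the 101 negative cells with 3 or more. In 6 positive cells no hARtg UMI was found. The 68 cells between the limits had 116 CPM and 33.8% of cells. Osr1 itself had 0 UMIs in positive and 1 in negative cells. When the 209 positive and 980 negative cells with both a Krt8 and a Krt18 UMI were left out, the hARtg log2 ratio was 0.89, on 52 and 49 cells.

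**Figure D1:**
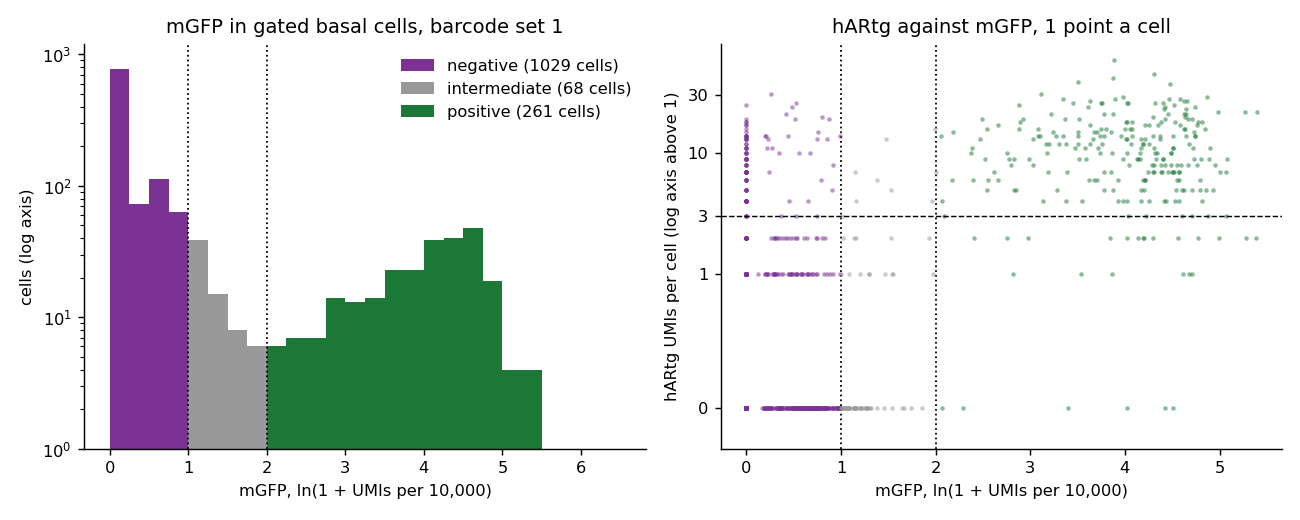
Left, number of gated basal cells of barcode set 1 (log axis) by mGFP value, ln(1 + UMIs per 10000), with dotted lines at the limits 1 and 2. Right, hARtg UMIs of each cell (log axis above 1) against its mGFP value, with a dashed line at 3 UMIs. Positive cells (green) had a median of 10 hARtg UMIs, and a group of negative cells (purple) also lay at or above 3 UMIs.

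Over all genes with at least 100 UMIs on both sides together, 8345 in number, the median log2 ratio of positive over negative cells was -0.06. At least 2-fold higher CPM in positive cells was found for 104 genes (1.25% of those tested) and at least 2-fold lower CPM for 190 (2.28%). These shares are the background for every list count past 2-fold below. Counting intervals lay wholly above 0 for 1153 of the 8345 genes and wholly below 0 for 1786, the background for counts of intervals. Past 4-fold lay 18 and 29 genes. Of the 2743 genes at 50 CPM or more, 29 were past 2-fold higher and 32 past 2-fold lower. A few cells carried some of these ratios. For 23 of the 104 higher genes and 10 of the 190 lower ones, the 5 richest cells of the higher side held 50% or more of its UMIs.

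**Figure D2:**
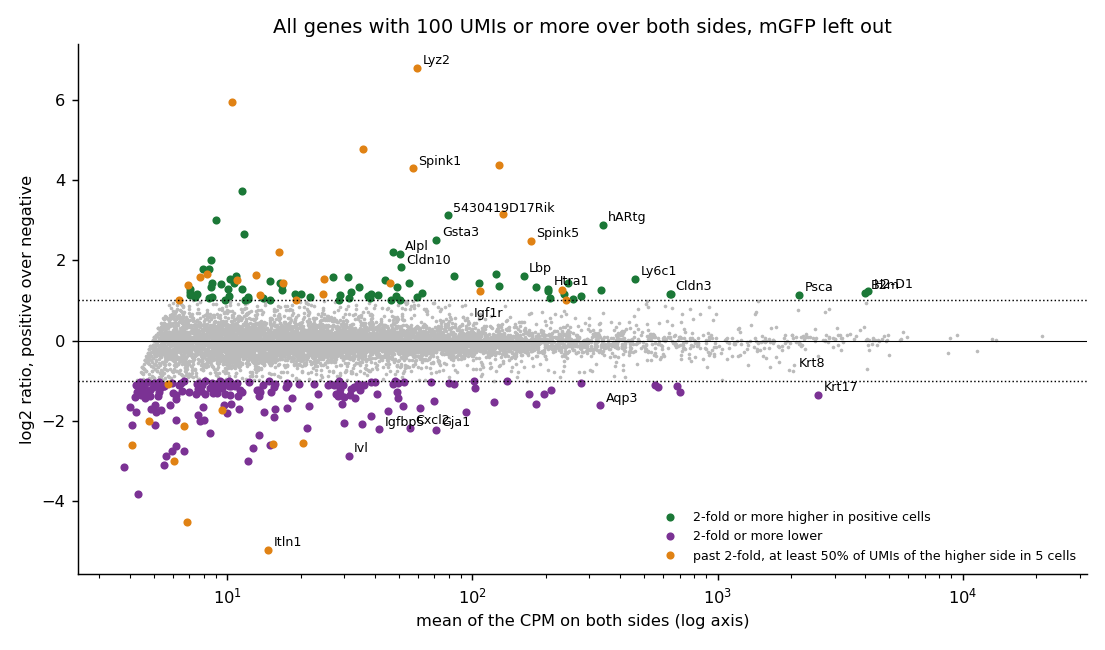
Log2 ratio of CPM, positive over negative cells, against the mean CPM of both sides (log axis) for every gene with 100 UMIs or more except mGFP. Green and purple points are past 2-fold (dotted lines), and orange points are past 2-fold with at least 50% of the UMIs of the higher side in 5 cells. Lyz2 and Itln1, the most extreme points, are both orange.

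MHC class I genes, which present peptides to cytotoxic T cells, were higher in positive cells as a group. Of 23 measured members 6 were past 2-fold higher and 0 past 2-fold lower, and 19 had counting intervals wholly above 0. The median log2 ratio was 0.62 against -0.06 over all genes, and the summed level was 21430 CPM against 10880 CPM. H2-D1, a class I heavy chain (GRCm38.p6, chromosome 17, 35263094 to 35267497), had per-cell levels of 183 to 24119 CPM (median 4629) in positive cells and 0 to 24188 CPM (median 1222) in negative cells. The ranges overlapped, while the medians lay far apart. Its log2 ratio was 1.23 (1.21 to 1.25). B2m, the light chain shared by class I molecules (chromosome 2, 122147687 to 122153082), had per-cell medians of 3939 and 1081 CPM and a log2 ratio of 1.20 (1.17 to 1.22). H2-Q7 was at 895 and 402 CPM (log2 ratio 1.16), and was found in 82.0% and 54.5% of cells. H2-Q10 was also past 2-fold, but 89.7% of its UMIs in positive cells came from 5 cells, and without these its log2 ratio was -1.84. The MHC class II list, whose products present to helper T cells, had 1 of 7 members past 2-fold higher. All 7 of its intervals lay above 0, with a median log2 ratio of 0.81. H2-Aa was at 787 and 432 CPM (log2 ratio 0.87) and H2-Ab1 at 834 and 475 CPM (0.81). The member past 2-fold was the protease Ctss, with 54.2% of its positive-side UMIs in 5 cells. Among interferon-stimulated genes 5 of 32 were past 2-fold higher and 1 lower (median 0.27). They included Ifi47 at 11.6 and 3.88 CPM, Igtp at 18.7 and 8.56 CPM and Cxcl10, whose log2 ratio of 1.23 was -0.16 without its 5 richest cells.

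Of 11 measured genes for small surface proteins, most of them anchored by a lipid tail, 5 were past 2-fold higher and 0 lower (median 0.77). Counting intervals lay above 0 for 7 and below 0 for 3. Ly6c1, a Ly6 family antigen, was found in 88.1% of positive and 49.9% of negative cells, with per-cell medians of 384 and 0 CPM. Summed levels were 685 CPM (663 to 708) and 237 CPM (229 to 245), a log2 ratio of 1.53. Psca, prostate stem cell antigen, was at 2952 and 1339 CPM (log2 ratio 1.14), and found in 90.8% and 79.98% of cells. Ly6k stood at 70.7 and 28.0 CPM, in 43.3% and 12.1% of cells. Cd52 and Ly6g6c were past 2-fold through few cells: without the 5 richest cells their log2 ratios were -0.53 and -0.87.

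Of 16 measured tight junction genes 2 were past 2-fold higher and 0 lower (against 1.25% and 2.28% of all genes tested), with a median log2 ratio of 0.08. Both were claudins, the membrane proteins that form the junction strands. Cldn3 (chromosome 5, 134986214 to 134987476) was found in 85.4% of positive and 51.4% of negative cells, and in 61.2% and 27.8% after thinning. Its levels were 885 CPM (860 to 911) and 397 CPM (386 to 407), a log2 ratio of 1.16 (1.10 to 1.21). Cldn10 was found in 51.0% and 10.7% of cells, at 79.3 and 22.5 CPM (log2 ratio 1.82). Luminal comparison cells had more of each, 1327 CPM Cldn3 and 269 CPM Cldn10.

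Several of the 15 highest genes encode enzymes and secreted proteins and were detected broadly. Alpl, the tissue-nonspecific alkaline phosphatase (chromosome 4, 137741731 to 137796384), was found in 62.8% of positive and 16.6% of negative cells. It was at 82.4 CPM (74.8 to 90.6) and 18.5 CPM (16.3 to 20.8), a log2 ratio of 2.16 (1.94 to 2.38). Luminal comparison cells had 11.7 CPM. Lbp, which binds bacterial lipopolysaccharide (chromosome 2, 158306493 to 158332852), had per-cell medians of 179 and 0 CPM and summed levels of 244 and 79.7 CPM (log2 ratio 1.61). Gsta3, a glutathione transferase, was found in 54.0% and 16.7% of cells (log2 ratio 2.51) and was the only 1 of 30 antioxidant and glutathione genes past 2-fold higher, with 2 lower. The transcript 5430419D17Rik was found in 53.6% and 7.77% of cells, at 142 and 16.4 CPM (log2 ratio 3.12). Apoc1, a small apolipoprotein, was at 78.2 and 17.1 CPM (2.20) and Nucb2, a calcium-binding protein, at 189 and 59.9 CPM (1.66). Htra1, a secreted serine protease that can cut IGF binding proteins, was not among the 15 highest. It was found in 90.4% and 58.0% of cells, at 289 and 118 CPM (log2 ratio 1.29). Luminal comparison cells had 221 CPM 5430419D17Rik, 451 CPM Nucb2 and 126 CPM Gsta3, the last against 121 CPM in positive cells. They had less Lbp, Apoc1 and Htra1 than positive cells, at 85.2, 14.6 and 10.1 CPM.

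Because the transgene encodes a transcription factor that binds DNA, promoter sequence was read for the 15 highest and 15 lowest genes from RefSeq (GRCm38.p6), which held 9 and 11 of them. The androgen response half-site AGAACA, on either strand, was in 3 of 14 promoters of the highest genes (21.4%), in 3 of 14 of the lowest (21.4%) and in 19.0% of all 32841 promoters of the same length. The spaced palindrome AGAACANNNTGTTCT was in 0 of either set and in 3 promoters overall. Those shares lay close together. Below stand the 250 bases before a RefSeq start of Alpl (chr4:137766476-137766725, minus strand), the broadly detected high gene with a half-site, and of Ivl (chr3:92573736-92573985, minus strand), a low gene with a half-site, with the half-site in capitals. It begins 170 bases before the Alpl start and 36 before the Ivl start. The other Alpl promoter (chr4:137796335-137796634) held 0 half-sites, and which Alpl start these cells used was not tested.
Alpl: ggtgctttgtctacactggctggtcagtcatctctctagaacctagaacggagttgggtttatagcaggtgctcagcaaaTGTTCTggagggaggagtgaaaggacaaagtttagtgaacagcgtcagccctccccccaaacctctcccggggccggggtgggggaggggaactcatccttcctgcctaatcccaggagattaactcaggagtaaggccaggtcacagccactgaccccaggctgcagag
Ivl: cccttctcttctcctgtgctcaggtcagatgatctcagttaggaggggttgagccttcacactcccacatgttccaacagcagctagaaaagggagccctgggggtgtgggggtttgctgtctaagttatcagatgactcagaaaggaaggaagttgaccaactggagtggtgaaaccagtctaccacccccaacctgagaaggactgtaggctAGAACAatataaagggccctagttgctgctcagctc

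The genes with the most extreme ratios rested on few cells. Lyz2, macrophage lysozyme, had 612 UMIs in positive cells, of which 1 cell held 609. The same cell, with 27809 UMIs in all, held 105 of the 107 UMIs of the complement gene C1qa in positive cells. Without the 5 richest cells the Lyz2 log2 ratio of 6.78 was -0.89. Leukocyte markers past 2-fold higher, 3 of 4, were Lyz2, C1qa and Cd52. Spink1, a trypsin inhibitor of secretory epithelium, had a log2 ratio of 4.29 with 96.8% of positive-side UMIs in 5 cells, and -0.68 without them. The spermine-binding protein gene Sbp (3.16) and the protease inhibitor Spink5 (2.49) were at -0.01 and -3.04 without theirs. Gm12886 and Gm12888 had 82.2% and 81.9% of their UMIs in 5 cells. The secretory list, with 5 of 16 members past 2-fold higher, 0 lower and a median of 0.70, had a median of 0.27 when doublets were left out and -1.42 when the upper part of the mGFP range alone stood for the positive side.

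The study asked about IGF signalling in basal cells. It split basal cells of both tissues on hARtg and also used qPCR, antibody staining and receptor binding to DNA. Here the split was on mGFP in 1 barcode set with a 2-fold limit, so the comparisons are unlike. Of 18 measured ligands, receptors and adaptors 0 were past 2-fold in either direction, and the median log2 ratio was 0.02. Igf1r, the IGF1 receptor (chromosome 7, 67952257 to 68233668), was at 112 CPM (104 to 122) in positive and 79.8 CPM (75.3 to 84.4) in negative cells. Per cell it ranged from 0 to 564 CPM (median 90.8) and from 0 to 713 CPM (median 44.1), so the sides overlapped over nearly the whole range. The log2 ratio was 0.50 (0.35 to 0.64). With cells thinned to 3000 UMIs it was 0.28, and without the 5 richest cells 0.33. With the cells split on hARtg instead of mGFP it was 0.43. Thinned detection was 24.4% and 19.7%. Insr, the insulin receptor, was at 15.8 and 10.4 CPM (log2 ratio 0.61) and the kinase gene Mapk13 at 97.6 and 65.1 CPM (0.59). The ligand Igf1 had 0 UMIs in positive and 38 in negative cells, 94.7% of them in 5 cells. The IGF binding protein list held 8 genes, among them the protease Htra1, which is not a binding protein. Of these 6 reached 100 UMIs, of which 3 were past 2-fold lower and 1, Htra1, higher. The summed level of the list was 439 CPM in positive and 345.5 CPM in negative cells. Htra1 alone made up 289 and 118 CPM of these sums, so they do not give the total of the binding proteins. Igfbp5 was at 14.8 and 68.6 CPM (log2 ratio -2.21), Igfbp3 at 4.24 and 25.6 CPM (-2.60) and Igfbp4 at 2.503 and 8.23 CPM (-1.72).

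Among 21 JAK-STAT genes 1 was past 2-fold higher and 2 lower, against 1.25% and 2.28% of all genes tested. The kinase Jak2 was found in 57.9% of positive and 25.6% of negative cells, at 51.6 CPM (45.6 to 58.2) and 24.7 CPM (22.2 to 27.3), a log2 ratio of 1.06 (0.83 to 1.30). The lower ones were suppressors of cytokine signalling, Socs2 at 7.32 and 23.9 CPM (-1.71) and Socs5 at 4.62 and 10.97 CPM (-1.25). Socs3, at 28.3 and 47.6 CPM (-0.75), was not past 2-fold.

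Of 12 measured Wnt targets and feedback genes 0 were past 2-fold higher and 2 were lower, Cd44 and Notum, with a median of -0.32. Axin2, a feedback inhibitor that Wnt signalling switches on, was at 5.01 CPM (3.27 to 7.34) and 8.56 CPM (7.14 to 10.2). Tcf7l2, a transcription factor through which Wnt signalling acts, had a log2 ratio of -0.69 (-0.96 to -0.43). Tcf4, which the list also holds although it encodes a bHLH transcription factor and not a Wnt effector of that name, had -0.55 (-0.88 to -0.23). Ccnd1, cyclin D1, was at 66.8 and 65.7 CPM (0.02) and Myc at 214 and 193 CPM (0.15). The stem cell receptor gene Lgr5 had 1 and 22 UMIs. Of 14 Wnt ligands and modulators, 11 proliferation genes, 13 cyclin and CDK inhibitor genes, 10 Notch genes and 28 immediate early and heat shock genes, 0 were past 2-fold in either direction. Over all genes tested, 1.25% were past 2-fold higher and 2.28% lower.

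**Figure D3:**
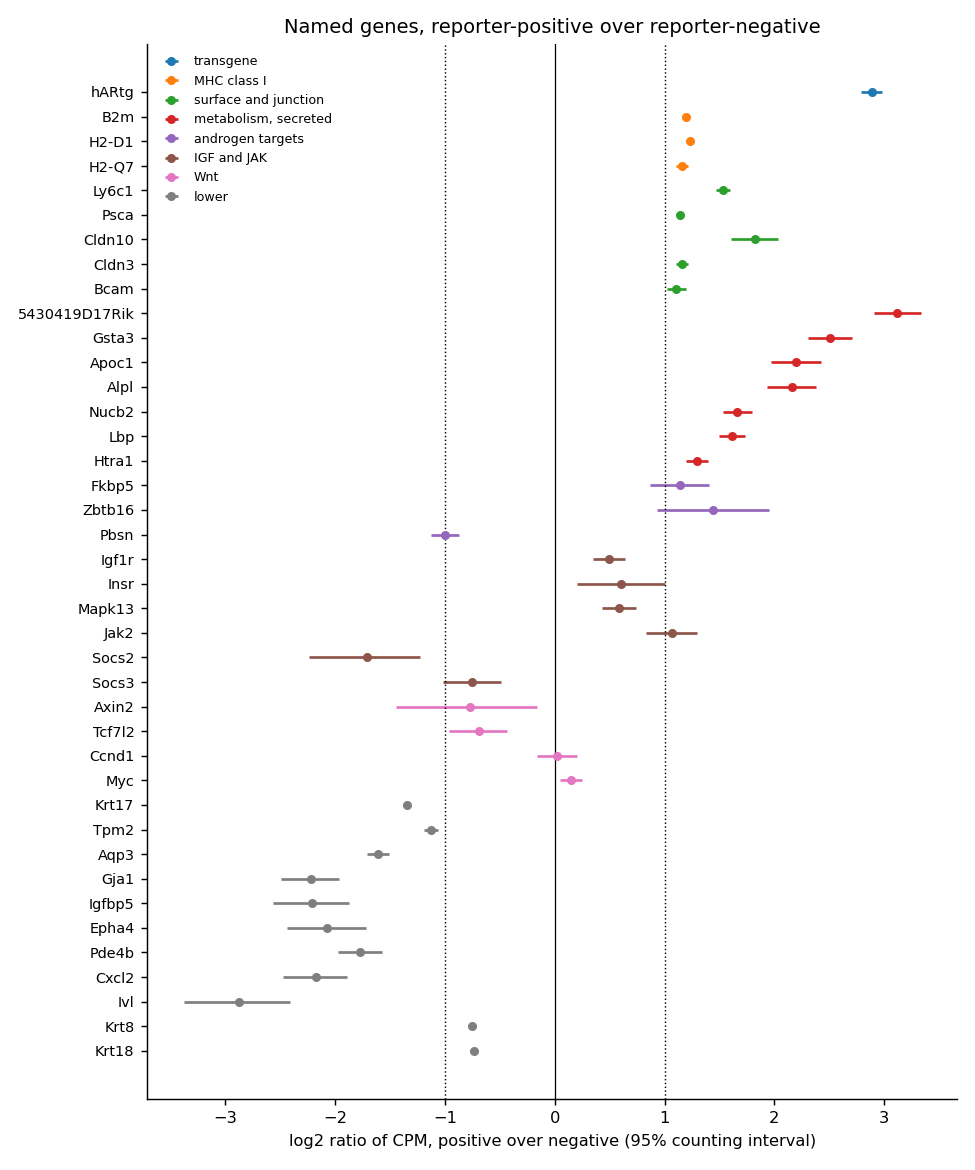
Log2 ratio of CPM, positive over negative basal cells, for named genes in colour by group, with 95% counting intervals and dotted lines at 2-fold. hARtg lies at 2.88 and Ivl at -2.87. Igf1r, Insr and Mapk13 lie between 0 and 1, and Jak2 at 1.06.

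Keratins and other genes of stressed and cornifying epithelium were lower in positive cells as a list. Of 19 measured members 4 were past 2-fold lower and 1 higher, with a median of -0.49. Krt17 (chromosome 11, 100256215 to 100261029), a keratin of basal and wounded epithelium, had per-cell medians of 885 and 2925 CPM and summed levels of 1447 and 3685 CPM, a log2 ratio of -1.35 (-1.38 to -1.31). Ivl, which encodes the cornified envelope protein involucrin, was at 7.51 CPM (5.34 to 10.3) and 55.0 CPM (51.3 to 58.9), in 8.81% and 18.8% of cells. Krt13 was at 10.6 and 32.5 CPM. The member past 2-fold higher was S100a7a, at 12.3 and 3.61 CPM.

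Of 25 measured basal identity genes 4 were past 2-fold lower (Krt17, Aqp3, Dsc3 and Cd44), 1 was higher, and the median was -0.11. The higher 1 was Bcam, a laminin-binding adhesion molecule, at 379 and 176 CPM. Aqp3, a water and glycerol channel, was at 164 and 501 CPM (log2 ratio -1.61). Of the genes in the rule, Krt5 was at 1369 and 1606 CPM and Krt14 at 3109 and 5050 CPM. Gja1, the gap junction protein connexin 43 (chromosome 10, 56377300 to 56390419), was found in 22.6% of positive and 60.1% of negative cells, and in 6.59% and 27.9% after thinning. Its per-cell medians were 0 and 77.9 CPM and its log2 ratio -2.22 (-2.49 to -1.96). The phosphodiesterase Pde4b was at 42.6 and 145 CPM (-1.77), the ephrin receptor Epha4 at 13.7 and 57.5 CPM (-2.07) and the metabolite receptor Hcar2 at 63.2 and 181 CPM (-1.52). Car8, Car2, Scpep1 and Ifi202b completed the lowest genes with broad or moderate detection, at log2 ratios from -2.06 to -1.68. Itln1 (-5.21) and Mgp (-2.55) had 86.4% and 78.9% of negative-side UMIs in 5 cells.

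Among contractile and actin genes 3 of 20 were past 2-fold lower and 0 higher, against 2.28% and 1.25% of all genes tested. The small GTPase gene Rhoc was at 91.7 and 273 CPM (log2 ratio -1.57) and the tropomyosin gene Tpm2 at 427 and 934 CPM (-1.13), while Tagln, with 23 and 218 UMIs, had all of its positive-side UMIs in 5 cells. Of 14 chemokine genes 6 were past 2-fold lower and 2 higher. Cxcl12 was at 1.16 and 9.90 CPM, Cxcl14 at 4.43 and 22.5 CPM and the neutrophil attractant Cxcl2 at 20.2 and 91.2 CPM. Of 21 TGF-beta and BMP genes 4 were lower and 1 higher. Inhba, an activin subunit, was at 25.6 and 78.8 CPM (-1.62), its antagonist Fst at 355 and 786 CPM (-1.15) and Tgfb2 at 32.2 and 66.9 CPM (-1.06). Bmp1, a procollagen protease, was at 42.4 and 20.3 CPM (1.06).

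The keratins Krt8 and Krt18 had lower levels in positive cells, and neither was past 2-fold. Krt8 had per-cell medians of 328 and 1273 CPM (log2 ratio of sums -0.75) and Krt18 summed levels of 1471 and 2442 CPM (-0.73). In barcode set 2 their log2 ratios were 0.45 and 0.50, on the other side of 0. Krt7, a further luminal keratin, was at 528 and 400 CPM (0.40). Over 16 luminal identity genes 1 was past 2-fold higher (Cldn3), 0 lower, and the median was -0.09. Androgen receptor targets split: of 22 measured, 2 were past 2-fold higher and 1 lower. Their median log2 ratio was 0.07, with 8 counting intervals above 0 and 6 below. Of all 8345 genes tested, 1153 had intervals above 0 and 1786 below. The lower gene was the kinase gene Camkk2 (-1.29). The higher ones were Fkbp5, an FK506-binding chaperone cofactor, at 39.7 CPM (34.4 to 45.5) and 18.0 CPM (15.9 to 20.3), and the transcription factor Zbtb16, at 12.7 and 4.68 CPM. Pbsn, probasin, a secreted product of the mouse prostate under androgen control, was at 112 and 223 CPM (-0.99), with 61.6% and 73.2% of its UMIs in 5 cells. In the remaining lists, past 2-fold higher and lower were 3 and 1 of 16 proximal and urethral markers, 0 and 1 of 6 steroid receptors, 2 and 3 of 23 defence genes, 3 and 1 of 12 complement genes, 1 and 1 of 24 protease genes, 0 and 1 of 14 EGF family genes and 0 and 1 of 9 FGF genes. Over all genes tested the shares were 1.25% and 2.28%. Of markers of other cells, 0 and 2 of 4 fibroblast genes and 0 and 0 of 1 endothelial gene were past 2-fold, and no smooth muscle or neuroendocrine marker reached 100 UMIs.

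Genes differed in how they followed the amount of mGFP. When the gated cells were placed in 6 ranges of mGFP value, hARtg was at 79.4, 84.1 and 116 CPM in the ranges below 2, and at 437, 554 and 674 CPM in the ranges above. Krt17 and Gja1 showed a like break at the upper limit: Krt17 was at 3922, 3253 and 3562 CPM below it and at 1523, 1405 and 1456 CPM above. B2m differed in smaller steps, from 2219 to 2803, 3211, 4313, 5356 and 6031 CPM. Krt8 had no such order, since cells with values of 3 to under 4 had 2550 CPM and cells at 4 or more 808 CPM. Pbsn was at 86.2 CPM in cells without mGFP, at 471 and 477 CPM in cells with traces of it and at 39.7 CPM in the highest range. A single negative cell held 1149 Pbsn UMIs, 34.5% of the negative side, and its part in these levels was not tested. The 3 ranges above the limit held 34, 73 and 154 cells.

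**Figure D4:**
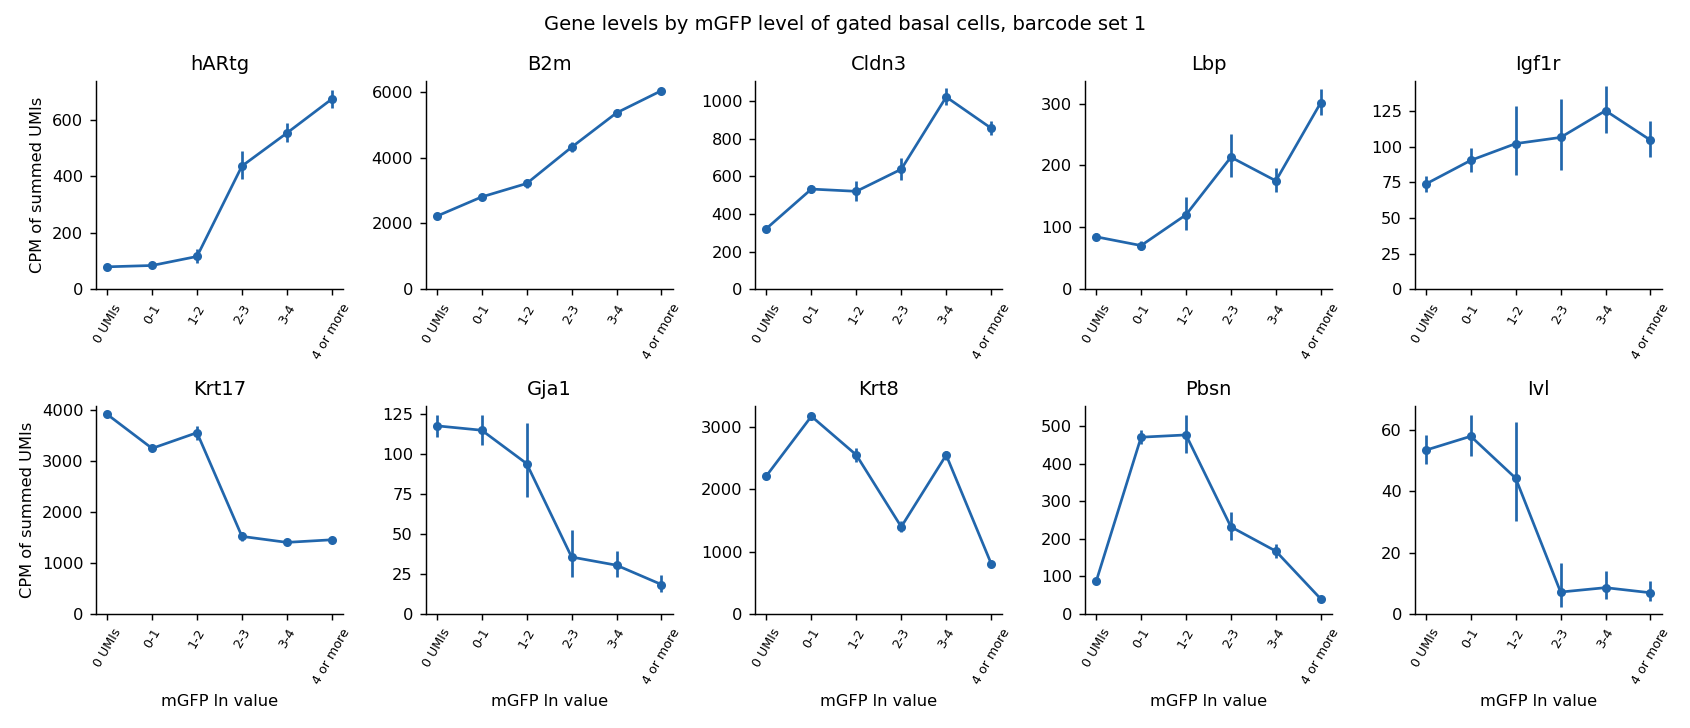
CPM of summed UMIs (linear axes from 0) in gated basal cells grouped by mGFP value, ln(1 + UMIs per 10000), for 10 genes, with exact Poisson 95% intervals. hARtg, Krt17, Gja1 and Ivl differ most between the ranges 1 to 2 and 2 to 3. B2m is higher in each successive range.

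The negative cells themselves divided by hARtg. At least 1 hARtg UMI was seen in 267 of them and 3 or more in 101, a limit set after the values were seen. In these 101 cells hARtg was at 538 CPM (505 to 572), and in positive cells, which were not chosen by hARtg, at 598 CPM. Their mGFP was at 22.98 CPM (16.6 to 30.9), against 21.4 CPM (18.6 to 24.5) in the 762 negative cells without an hARtg UMI and 36.4 CPM in Ptprc+ cells. The rule held mGFP under 1 in both groups of negative cells, so these mGFP levels are a description. The limit of 3 UMIs picked the 101 cells for high hARtg, so their hARtg level is a description too. The median depth of the 101 cells was 14950 UMIs against 10375 UMIs in the 762. Among negative cells, those with 3 or more hARtg UMIs had 110 of 7124 genes past 2-fold higher than those with none (1.54%) and 204 past 2-fold lower (2.86%). Positive cells set against the same 101 cells had 39 of 5770 genes past 2-fold higher (0.676%) and 8 lower (0.139%). Fewer UMIs were available for the latter comparison, and the comparisons share cells.

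For many of the genes named above, hARtg-bearing negative cells had levels nearer to positive cells than to negative cells without hARtg. B2m was at 5593 CPM in hARtg-bearing negative cells, 1913 CPM in negative cells without hARtg and 5554.5 CPM in positive cells. H2-D1 was at 6403, 1884 and 5764 CPM in the same order, Cldn3 at 947, 290 and 885 CPM, Ly6c1 at 764, 154 and 685 CPM, and Lbp at 310, 50.8 and 244 CPM. Alpl was at 79.1 CPM (66.9 to 92.9) against 9.73 CPM without hARtg and 82.4 CPM in positive cells. Igf1r was at 105 CPM (90.6 to 120) against 73.7 CPM and 112 CPM. Lower genes behaved alike: Gja1 was at 33.1, 130 and 25.03 CPM, Aqp3 at 177, 575 and 164 CPM, and Krt17 at 1888, 4108 and 1447 CPM. Other genes did not. Apoc1 was at 22.98 CPM (16.6 to 30.9) in negative cells with hARtg, near the 17.3 CPM of those without, and at 78.2 CPM in positive cells. Ivl was at 39.5 CPM (31.1 to 49.6), nearer to the 55.5 CPM without hARtg than to the 7.51 CPM of positive cells. Gsta3 and 5430419D17Rik lay between, at 60.4 and 79.6 CPM. Among 1569 luminal comparison cells with mGFP under 1, 104 (6.63%) also held 3 or more hARtg UMIs.

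**Figure D5:**
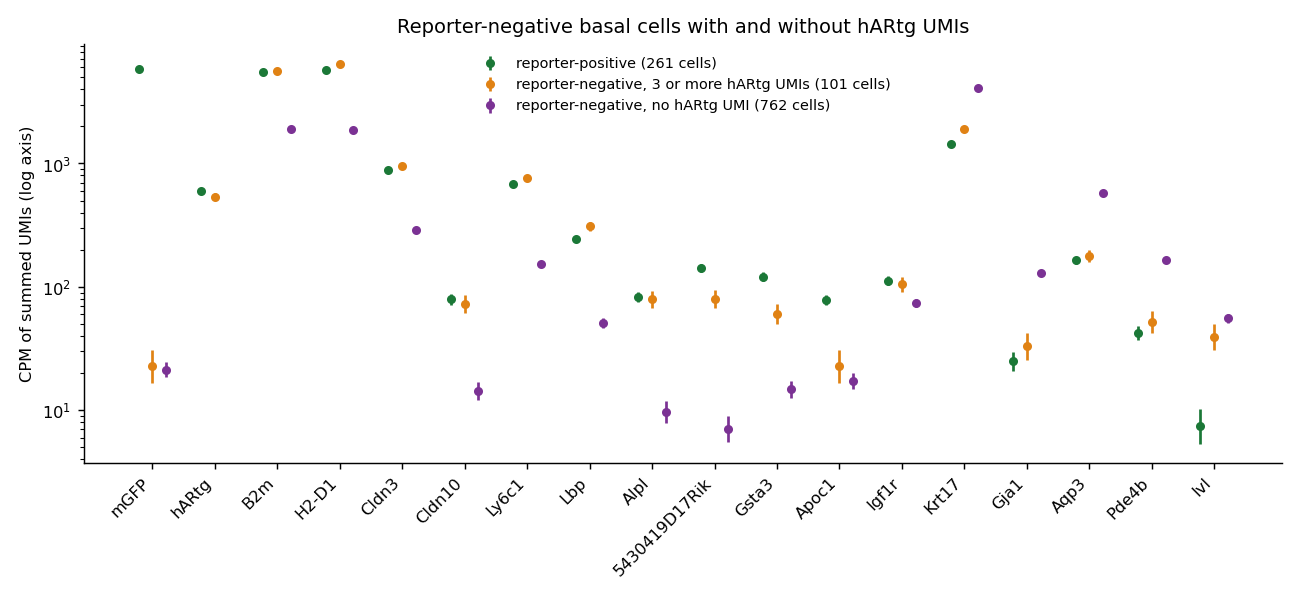
CPM of summed UMIs (log axis) with exact Poisson 95% intervals in positive cells (green), negative cells with 3 or more hARtg UMIs (orange) and negative cells without hARtg (purple, for which hARtg is 0 by definition and not drawn). The rule kept mGFP low in orange and purple cells alike, at 22.98 and 21.4 CPM. In the orange cells B2m, Cldn3, Alpl and Gja1 lie near the green cells, and Lbp lies above them.

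As a description over 1342 basal cells thinned to 3000 UMIs, which share 1 library, 1870 genes were ranked by Spearman correlation with mGFP. hARtg came highest at 0.55, followed by B2m at 0.34, H2-D1 at 0.33, Ly6e and Ly6c1 at 0.30, H2-K1 and Cldn3 at 0.28, and Sepp1, Nucb1 and Psap at 0.27. Most unlike mGFP were Krt17 at -0.32, Pim1 at -0.26, Tpm2 at -0.25, and Thbs1 and Rhoc at -0.24. All but hARtg are weak.

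In barcode set 2 the same rule found 81 positive and 20 negative cells of 136 gated basal cells, too few negative cells for more than values side by side. hARtg was at 644 CPM (597 to 693) and 410 CPM (321 to 516), so its log2 ratio was 0.65 there, against 2.88 in set 1. At least 1 hARtg UMI was found in 12 of the 20 negative cells. Igf1r had a log2 ratio of 0.33 in set 2. Aqp3 (-1.54), Krt17 (-1.01), Pde4b (-1.85) and Tpm2 (-0.78) had the sign seen in set 1, as did Cldn3 (3.42), Nucb2 (3.26) and Apoc1 (1.41). H2-D1 was at -0.01, Lbp at -0.09 and Ly6c1 at -0.11, with intervals that held 0. Alpl had 22 and 5 UMIs (-0.52) and Gsta3 49 and 12 (-0.63), and their intervals also held 0. Some genes stood on the other side of 0 in set 2. Tcf4 was at 3.03, with 257 and 5 UMIs, and Axin2 at 4.18 (1.67 to 9.49), with 114 and 1. Notum had 67 and 0 UMIs, against a log2 ratio of -1.05 in set 1. Gja1 was at 1.51 (0.74 to 2.40), Htra1 at -1.22 (-1.83 to -0.58) and Bcam at -1.40 (-1.78 to -1.01).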

How the data were processed

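The authors counted UMIs with Cell Ranger 3.1.0 against mm10 with the hARtg and mGFP sequences added, per the labels and the study's methods, and filtered the cells. The deposited table holds natural log values, ln(1 + UMIs per 10000 UMIs of a cell), although it is named as counts. Whole UMIs were recovered from them for 100% of values above 0, within a tolerance of 0.001. The number of set 1 cells, 6332, is also the PIN cell number in the study's text, but neither labels nor column names tie a barcode ending to a tissue, so no cell was assigned. By their names alone, feature ARQ was read as hARtg and feature EGFP as mGFP.

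Each side's UMIs were added up and given as CPM with exact Poisson 95% intervals. Ratios carry intervals of the conditional binomial distribution, shares of cells those of Clopper-Pearson. In ratios, sums of 0 counted as 3 UMIs. No p-value was computed, since each set holds 1 library. Genes needed 100 UMIs over both sides, and past 2-fold means a log2 ratio of at least 1 in size. Named genes were the 15 highest and 15 lowest by log2((CPM + 10)/(CPM + 10)) with 200 UMIs or more, up to 4 per list with the largest ratio, and genes fixed by name. Among these, examples were chosen after their values were seen. The members and the 36 lists were chosen with earlier results of these data known. Thinning drew 3000 UMIs per cell and left out 3 positive and 11 negative cells. Likeness was ranked over genes found in 20% or more of thinned cells. Doublets were scored with Scrublet in scanpy 1.11.5 and kept, and the run used Python 3.11.15, numpy 2.4.6, scipy 1.17.1 and pandas 2.3.3. The ratio intervals were tried on simulated sums drawn with counting error alone. That trial checks the calculation and cannot show how the intervals hold under spread between cells. Gene positions come from RefSeq (GRCm38.p6, the assembly of mm10). Hairpin, mature miRNA and protein sequences were not used here. Alternatives were other limits, weights and cell filters, and the split on hARtg.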

Additional observations from a re-analysis of the deposited data

Results flagged for a closer look

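Among named genes with at least 100 UMIs over both sides in barcode set 2, 4 that were past 2-fold in barcode set 1 had counting intervals on the other side of 0 in set 2, where only 20 negative cells were available. The difference between the sets was not tested over samples, since each holds 1 library. Mgp had a log2 ratio of 4.10 in set 2 and -2.55 in set 1, where 78.9% of its negative-side UMIs came from 5 cells. Bcam stood at -1.40 in set 2 and 1.11 in set 1. Htra1 stood at -1.22 and 1.29, and Gja1 at 1.51 and -2.22. With fewer UMIs, Car2 (2.77, 0.87 to 5.84) and Aldh1a3 (2.90, 0.35 to 8.23) also lay above 0 in set 2 and below it in set 1, and Notum, Cxcl2 and Tagln, lower in set 1, had 67, 35 and 44 UMIs in positive and 0 in negative cells of set 2. Of the negative cells of set 2, 12 of 20 held at least 1 hARtg UMI, against 25.9% in set 1, and the part of this in the 4 differences was not tested.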

How the results depend on the processing

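The main counts of genes past 2-fold were 104 higher and 190 lower. Thinning gave 69 and 98 over 4270 genes tested, and leaving out cells with Krt8 and Krt18 gave 24 and 19 over 1625 genes tested. Setting 1 or more mGFP UMI against 0 gave 96 and 21, a split on hARtg 98 and 58, and the upper part of the mGFP range 105 and 453. Giving each cell the same weight gave 167 and 243. A minimum of 20 UMIs gave 283 and 541, and no minimum 756 and 887. Leaving out doublets gave 109 and 214, the stricter gate 81 and 138, centring 119 and 164, and cells of 8000 to 20000 UMIs 113 and 196.

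The hARtg log2 ratio of 2.88 was 3.08 with equal weights, 3.004 thinned, 2.03 for any mGFP UMI, 3.01 with the stricter gate, 0.89 without cells with Krt8 and Krt18, 3.14 for the upper part of mGFP, 2.78 without its 5 richest cells and 0.65 in set 2. Igf1r (0.50) was 0.28 thinned, 0.26 without cells with Krt8 and Krt18, and 0.33 both without its 5 richest cells and in set 2. The causes were not tested.

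Some genes past 2-fold changed sign. Without their 5 richest cells Cd52 was at -0.53, Cxcl10 at -0.16, Nupr1 at -0.26, Lyz2 at -0.89, Sbp at -0.0097, Ly6g6c at -0.87, H2-Q10 at -1.84, Spink1 at -0.68 and Spink5 at -3.04. With the upper part of mGFP Cd52 was at -3.60, Nupr1 at -1.40, Ly6g6c at -1.52, H2-Q10 at -1.60 and Spink5 at -2.68. In cells of 8000 to 20000 UMIs Cd52 was at -0.15, Nupr1 at -0.80, Ly6g6c at -0.040, H2-Q10 at -0.38 and Spink5 at -1.25. With the stricter gate Lyz2 was at -0.30, Sbp at -0.12, H2-Q10 at -1.56, Spink1 at -0.029 and Spink5 at -1.66. Without cells with Krt8 and Krt18 Cxcl2 was at 0.12, Mgp at 0.35, Nupr1 at -1.11, Notum at 1.35 and Spink5 at -1.97. Split on hARtg, Itln1 was at 0.11 and Cxcl2 at 0.083. For any mGFP UMI, Cxcl17 was at 1.87 and Aldh1a3 at 0.046. In set 2 Rhoc was at 0.21, Mgp at 4.10, Bcam at -1.40, Htra1 at -1.22, Gja1 at 1.51, Ly6c1 at -0.11 and H2-D1 at -0.014. Depth limits genes near the minimum of 100 UMIs, and cells are not replicates. The alternatives on cells of 8000 to 20000 UMIs, on the 5 richest cells and on shared barcodes were chosen after seeing the data. No paired analysis was possible because no result comes from a test over samples: the labels give no replicate numbers, and set 2 holds only 20 negative cells.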
